A study of Homo sapiens with 4 samples.

Results

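Short cassette exons are exons of 10 to 50 nt that are either spliced into the messenger RNA or skipped. A cassette exon was defined here by 3 splice junctions: 2 inclusion junctions that join the exon to its neighbours and 1 skip junction that joins the neighbours directly. An exon was a member where its inclusion reads (the rounded mean of the 2 inclusion junctions) and skip reads came to at least 20, with both above 0, in each of 4 RNA sequencing libraries. Only uniquely mapped reads on junctions with a GT-AG, GC-AG or AT-AC motif were counted, and where an exon had several skip junctions the one giving most reads was kept. This gave 8504 short exons among 93562 cassette exons of 10 to 500 nt, beside 49112 of 51 to 150 nt and 35946 of more than 150 nt. Since these reads chose the members, every member is partly included in all 4 libraries by construction, and inclusion levels are given as a description.

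The libraries are poly(A) RNA of HEK293T cells, a transformed human embryonic kidney line, transfected with an expression vector for SF3B1. There was 1 library each for the mutants R625H (1000 ng of plasmid), K666T (1000 ng) and K700E (2000 ng), and 1 for wild-type SF3B1 (WT), with a plasmid amount not given in the sources used here. All 4 cultures kept their own SF3B1 gene and received a vector with Lipofectamine 2000, so any SF3B1 made from the vector came beside the resident protein. With 1 library per vector there is no replicate check, and a test on reads compares libraries, not conditions. For K700E the plasmid amount and the mutation cannot be told apart. As the WT amount is not given, they cannot be told apart with certainty for R625H or K666T against WT either.

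SF3B1 is a subunit of the U2 small nuclear ribonucleoprotein, which binds the branch point upstream of the 3' splice site (the acceptor), and its cancer mutations are known for shifting acceptor choice. Very short exons leave little room for the factors that recognise an exon from both sides, and many depend on nearby enhancers. The shortest, called microexons, are best known from neurons, where SRRM4 promotes them and PTBP1 represses them in many other tissues, and they usually keep the reading frame and add a few residues to a protein surface.

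The following exons carry the differences described further on. Letters are the RNA strand written as DNA from GENCODE 29 transcripts, capitals mark the short exon, the 9 lower-case bases on each side are the ends of the neighbouring exons that the skip junction joins, and positions are hg19 as in the deposited junctions. The SENP6 pair is shown because its members differ only by 3 bases at the acceptor.
CXXC1, 27 nt, chr18:47811695-47811721, minus strand: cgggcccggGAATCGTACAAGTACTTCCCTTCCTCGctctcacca
DLST, 34 nt, chr14:75349294-75349327, plus strand: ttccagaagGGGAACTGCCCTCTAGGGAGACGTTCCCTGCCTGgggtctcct
EMSY, 42 nt, chr11:76165793-76165834, plus strand: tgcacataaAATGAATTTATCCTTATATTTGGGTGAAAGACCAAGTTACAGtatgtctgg
CREBBP, 45 nt, chr16:3827614-3827658, minus strand: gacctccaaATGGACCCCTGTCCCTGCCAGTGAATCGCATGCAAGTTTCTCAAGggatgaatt
CYB561D2, 38 nt, chr3:50389440-50389477, plus strand: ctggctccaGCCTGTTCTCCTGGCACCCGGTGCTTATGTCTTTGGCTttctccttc
NCOR1, 27 nt, chr17:16054904-16054930, minus strand: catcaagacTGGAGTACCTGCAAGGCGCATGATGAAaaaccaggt
MAX, 27 nt, chr14:65568264-65568290, minus strand: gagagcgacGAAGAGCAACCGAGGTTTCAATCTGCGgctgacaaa
ARRB1, 24 nt, chr11:74982745-74982768, minus strand: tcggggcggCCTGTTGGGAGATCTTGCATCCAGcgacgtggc
PTPRS, 12 nt, chr19:5218798-5218809, minus strand: ctacaagaaCAAACCCGACAGtaaacgcaa
FIP1L1, 27 nt, chr4:54306749-54306775, plus strand: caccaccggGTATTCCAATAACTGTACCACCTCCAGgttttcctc
OCRL, 24 nt, chrX:128718321-128718344, plus strand: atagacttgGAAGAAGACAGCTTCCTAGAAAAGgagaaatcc
SENP6, 21 nt, chr6:76350400-76350420, plus strand: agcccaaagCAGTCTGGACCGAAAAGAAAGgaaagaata
SENP6, 18 nt, chr6:76350403-76350420, plus strand: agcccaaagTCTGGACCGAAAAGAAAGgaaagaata

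A second set shows microexons of similar sequence in related genes, from a list of genes with known neural microexons. Among 81 pairs of list exons of equal length (15 nt or more) from different genes, 3 had at least 70% of bases in common. CPEB2 and CPEB4 shared 20 of 24 bases (83.3%), MACF1 and DST shared 16 of 18 (88.9%), and MINK1 and TNIK shared 17 of 24 (70.8%).
CPEB2, 24 nt, chr4:15042088-15042111, plus strand: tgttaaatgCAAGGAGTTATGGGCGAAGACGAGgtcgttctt
CPEB4, 24 nt, chr5:173370029-173370052, plus strand: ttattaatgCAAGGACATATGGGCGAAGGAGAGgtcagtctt
MACF1, 18 nt, chr1:39930767-39930784, plus strand: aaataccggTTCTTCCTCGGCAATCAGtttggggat
DST, 18 nt, chr6:56333780-56333797, minus strand: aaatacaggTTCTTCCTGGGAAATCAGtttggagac
MINK1, 24 nt, chr17:4796581-4796604, plus strand: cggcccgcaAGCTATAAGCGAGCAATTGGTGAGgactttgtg
TNIK, 24 nt, chr3:170824972-170824995, minus strand: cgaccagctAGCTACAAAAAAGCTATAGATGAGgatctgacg

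The junction files were deep enough to read these exons, although the WT library stood somewhat apart. The R625H, K666T and K700E libraries held 65939159, 68585811 and 71055491 uniquely mapped junction reads, against 71945311 for WT. Unmapped pairs were 16.46, 17.31 and 15.17% in the mutants and 8.84% in WT, and 514031, 526376 and 535143 junctions were listed against 467160 in WT; their part in the differences below was not tested. A member had a median of 261, 276 and 289 inclusion plus skip reads in R625H, K666T and K700E and 284 in WT. At the lower limit, 40 members had exactly 20 reads in their shallowest library and a median WT inclusion of 50%, against 55% for 45 exons left out at 19 reads. At the length limit, 343 members of 50 nt had a median WT inclusion of 86.6%, and 454 exons of 51 nt, just outside, 80.4%. Without the need for reads above 0, 18038 short exons would have met the 20 reads.

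Fewer than 1 in 3 members were exons of the annotation. A match to GENCODE 29 found 2536 members (29.8%) whose span is an annotated exon, in 2026 genes, called annotated short exons here. A further 2586 (30.4%) ended at an annotated 5' splice site (donor) but began at an unannotated acceptor, 1464 (17.2%) had only the acceptor annotated, 1673 (19.7%) had neither end annotated, 73 had both ends but not as 1 exon, and 172 lay outside matched genes. The classes also differed in how evenly their 2 inclusion junctions were read. The weaker junction held a median of 0.777 times the reads of the stronger in annotated short exons, 0.278 where neither end was annotated, and 0.00515 and 0.00528 where only the acceptor or only the donor was. In 5171 members (60.8%) an inclusion junction had no read in at least 1 library, and among annotated short exons in 406 (16%). An unread junction does not by itself show uneven reading. Of the 1673 members with neither end annotated, 1281 had an unread junction. A weaker junction of at least 0.5 times the stronger was found for 626 of the 1673, so some had both. Where only the acceptor or only the donor was annotated, the inclusion reads of most members came almost wholly from 1 junction. That junction may belong to a longer or another exon, so the annotated short exons are described apart.

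**Figure D1:**
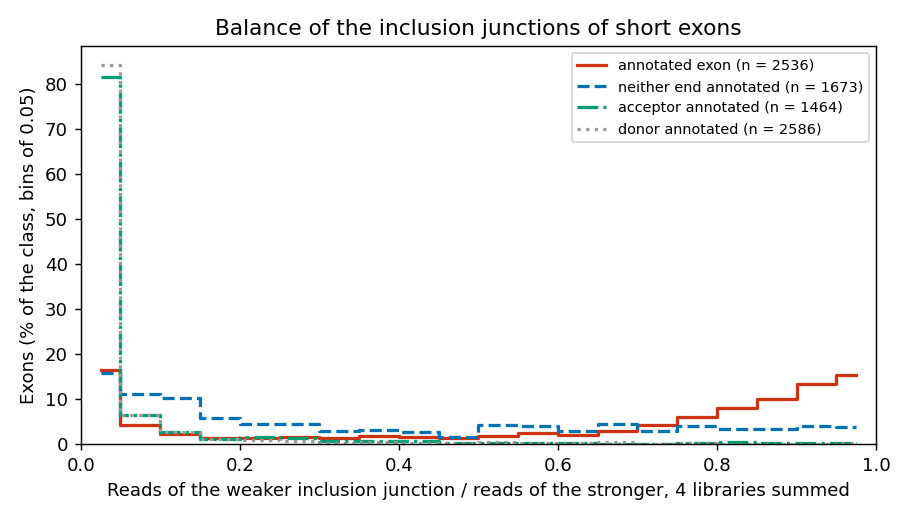
Balance of the inclusion junctions of short exons: reads of the weaker divided by the stronger junction, 4 libraries summed (x axis), against the percent of exons in each bin of 0.05 (y axis), for 4 annotation classes. In the lowest bin lie 81.63% of exons with only the acceptor annotated and 84.3% of those with only the donor annotated, against 16.52% of annotated exons.

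Inclusion of the annotated short exons differed by length in every library. The 78 exons of 10 to 15 nt had a median inclusion of 37.8, 33.1 and 35.2% in R625H, K666T and K700E and 33.8% in WT. The 385 exons of 16 to 27 nt had 58.5, 57.7 and 57.4% in the mutants and 60.0% in WT. Exons of 28 to 39 nt (843) had 87.0, 85.6 and 85% against 87.6% in WT, and those of 40 to 50 nt (1230) had 92.1, 91.6 and 91.7% against 92.9% in WT. The order of the 4 length groups was thus the same in all 4 libraries.

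Reading frame went with inclusion and with length. Of 1830 annotated short exons in coding sequence, 914 (49.9%) had a length divisible by 3, so that skipping keeps the frame. The share was 71.3% of the 307 with WT inclusion under 10%, 66.7% of the 463 between 10 and 90%, and 36.4% of the 1060 over 90%. For coding exons of 51 to 150 nt the same shares were 54.6, 54.3 and 39.1%. Short exons in untranslated regions, where no frame applies, had 24.8% (77 of 310). By length, 79.5% of all annotated exons of 10 to 15 nt were divisible by 3, 57.7% of 16 to 27 nt, 49.1% of 28 to 39 nt and 34.7% of 40 to 50 nt. Nearly all short exons had GT-AG introns on both sides (8421 of 8504), 83 had a GC-AG intron, and none of the 8504 had an AT-AC intron. These motifs cover only the intron ends, so they do not tell which introns the minor spliceosome removes.

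**Figure D2:**
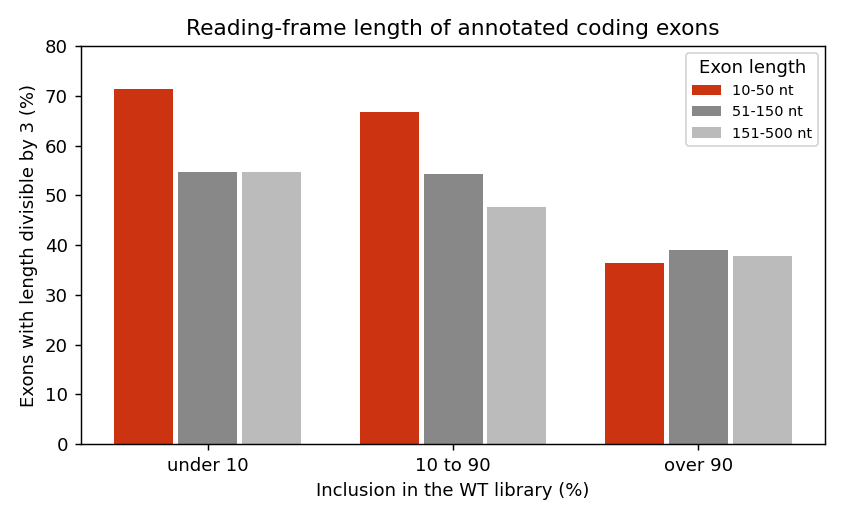
Percent of annotated coding exons with a length divisible by 3 (y axis) by inclusion in the WT library (x axis) and exon length. Among exons of 10 to 50 nt the share is 71.3% under 10% inclusion and 36.4% over 90%.

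Each mutant library was set against WT to ask which short exons were included more or less. Each exon was tested with a two-sided Fisher's exact test on inclusion and skip reads, and p-values were adjusted by the Benjamini-Hochberg method over all 93562 cassette exons; all adjusted p-values below are of this kind. An exon was called, and is said to have risen or fallen, where the adjusted p was under 0.05 and inclusion differed by at least 10 percentage points. In R625H 22 short exons rose and 40 fell, together 0.729% of those tested, where 0.408% of all cassette exons were called (0.15% rose and 0.259% fell). In K666T 21 rose and 70 fell (1.07%), where the share of all cassette exons was 0.67% (0.172% rose and 0.498% fell). In K700E 33 rose and 122 fell (1.82%), where it was 1.33% (0.232% rose and 1.1% fell). More short exons fell than rose in each mutant as counted here; with multi-mapped reads added, 55 rose and 54 fell in R625H. With the lower of the 2 inclusion junctions in place of their mean, 14 rose and 17 fell in R625H, 16 rose and 21 fell in K666T, and 22 rose and 31 fell in K700E. The mean difference from WT over all short exons was -0.28 points in R625H, -0.51 in K666T and -0.81 in K700E, with a 95% counting half-width of 0.08 points for each. With the lower inclusion junction these means were 0.25, -0.04 and -0.4 points, so that the R625H mean turned its sign. Of the 8504 short exons, 1985 (23.3%) shared an end with another, so the same reads can enter more than 1 of them. The half-widths and the counts of calls take the exons as separate. Exons of 51 to 150 nt had means of -0.31, -0.48 and -0.82 points, and longer exons -0.58, -0.67 and -1.04 points.

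Annotated short exons gave fewer calls. In R625H 6 annotated short exons rose and 3 fell (0.355%), where 0.214% of all 33717 annotated cassette exons were called (0.0801% rose and 0.133% fell); 6 rose and 6 fell with the lower inclusion junction, and 7 rose and 7 fell with all skip junctions summed. In K666T 4 rose and 10 fell (0.552%), where the annotated background was 0.406% (0.0979% rose and 0.308% fell). In K700E 8 rose and 20 fell (1.1%), where it was 0.854% (0.125% rose and 0.73% fell). Mean differences from WT over the 2536 exons were 0.12 points in R625H, -0.14 in K666T and -0.49 in K700E, with counting half-widths of 0.15, 0.15 and 0.14. Annotated exons of 51 to 150 nt lay lower, at -0.40, -0.59 and -0.91 points, and longer ones at -0.78, -0.85 and -1.25. The short exon means differed by how evenly the inclusion junctions were read. The 1682 with a weaker junction of at least 0.5 times the stronger averaged 0.31, 0.03 and -0.3 points (half-widths 0.18, 0.17 and 0.17). The 854 below that averaged -0.25, -0.49 and -0.86 points (half-widths 0.27, 0.26 and 0.26), so the R625H mean turned its sign. Split by frame, coding short exons divisible by 3 averaged 0.46, 0.17 and -0.22 points from WT in R625H, K666T and K700E, and the others -0.46, -0.75 and -0.97. Counting half-widths were 0.26 points for the divisible exons and 0.2 for the others in each mutant. The 2 sets also differed in WT inclusion, as given above, and the part of this was not tested. These means run over exons, which are not replicates, and were not tested.

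**Figure D3:**
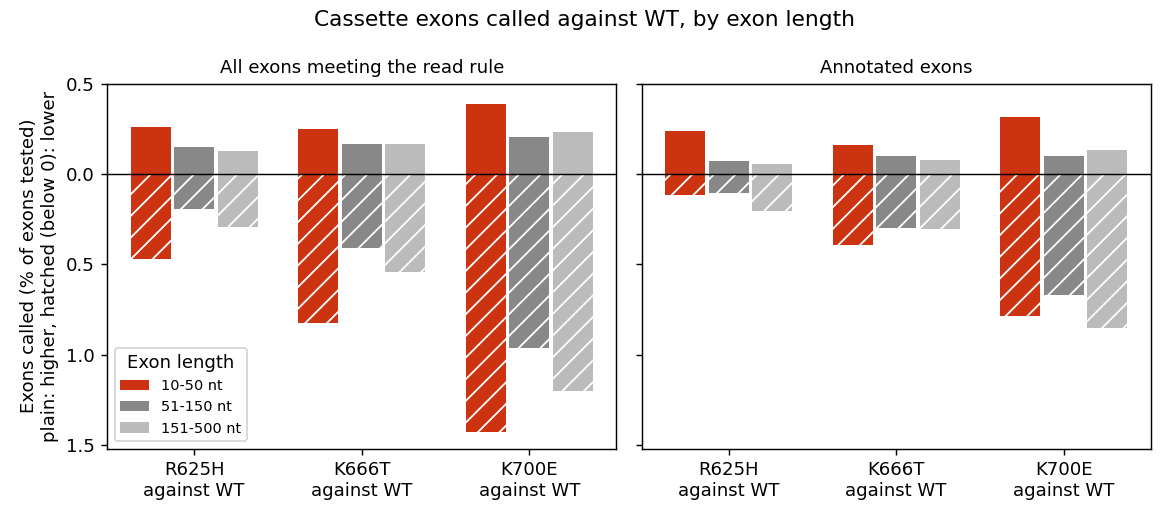
Percent of cassette exons called against WT in each mutant library, by exon length, for all exons (left) and annotated exons (right). Plain bars above 0 are exons that rose, hatched bars below 0 are exons that fell; for all exons of 10 to 50 nt in K700E these are 0.388% and 1.43%.

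The largest differences came mostly from members with an unread junction. Among the 5171 such members, 12 rose and 34 fell in R625H (0.89%), 12 rose and 50 fell in K666T (1.2%), and 19 rose and 88 fell in K700E (2.07%). Among the other 3333 members, 10 rose and 6 fell in R625H (0.48%), 9 rose and 20 fell in K666T (0.87%), and 14 rose and 34 fell in K700E (1.44%). Of the 46 exons that are among the 12 largest in a direction in any mutant against WT, 3 were annotated exons and 35 had an inclusion junction without a read in at least 1 library. BTF3, a translation-associated factor, had a member of 44 nt at 13.33, 12.24 and 3.90% inclusion in R625H, K666T and K700E and 82.20% in WT. In WT 1 of its inclusion junctions held 424 reads and the other 10; in the mutants the first held none, against 8, 11 and 6 on the second. The WT value thus rested on 1 end of the exon. RPS13, a ribosomal protein, showed the same for 20 nt (17.39, 20.37 and 19.35% against 75.44% in WT), with 162 reads on 1 junction in WT and none there in the mutants; the other junction held 15, 21 and 12 reads in the mutants and 10 in WT. Single-library cases on the mutant side were SNRPE, a core snRNP protein, whose 13-nt member had 64.60% in R625H, 6.67% in K666T, 7.84% in K700E and 7.69% in WT; UBL5 (40 nt), with 81.31% in K666T, 29.03% in R625H, 25.64% in K700E and 21.74% in WT; and PPIA (35 nt), with 56.56% in K700E, 7.69% in R625H, 5.05% in K666T and 12% in WT. Their read-rich junction had 284, 163 and 258 reads in the high library, and at most 4 in any other. In those libraries the other junction had 7, 11 and 17 reads.

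Among the 2586 members that only end at an annotated donor, 2 rose and 20 fell in R625H (0.851%, against 0.408% of all cassette exons). In K666T 8 rose and 28 fell (1.39%, against 0.67%), and in K700E 5 rose and 66 fell (2.75%, against 1.33%). Falls outnumbered rises over all cassette exons too, with 217 rises and 1025 falls in K700E. N4BP2L2 (36 nt) had 77.73, 69.55 and 53.95% in R625H, K666T and K700E against 84.16% in WT, with 340, 306 and 246 reads on its donor-side junction against 372 in WT and at most 1 read at its acceptor in any library; it fell in K666T and K700E (adjusted p = 0.0151 and 1.04e-09). EIF5, a translation initiation factor, showed the mirror case with only the acceptor annotated (24 nt). It had 50.16, 37.32 and 26.97% against 70.67% in WT, called in all 3 mutants, and at most 1 read on its other junction. Such values describe skipping of whatever exon the read-rich junction belongs to, and do not show that the span of the short exon was used. Of 92 called members of 27 nt or less, 12 were annotated exons and 48 had only the donor annotated, of which 46 had a weaker junction under 0.05 times the stronger. Among all 2586 members with only the donor annotated, 84.3% had such a junction. The share called among all members of 27 nt or less is not given here.

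The 45 annotated short exons called in any of the 6 comparisons lay in 43 genes, and 31 of them had a weaker inclusion junction of at least 0.5 times the stronger. Of the 45, 30 were coding and 20 of these kept the frame; of all 2536 annotated short exons, 1830 were coding and 914 of these kept the frame. None of their host genes was 2-fold from WT in any mutant. No read at another acceptor within 50 nt upstream, in any library, was found for 34 of the 45 and for 2104 of all 2536 annotated short exons. The plot of inclusion by library shows the 31 evenly read exons.

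**Figure D4:**
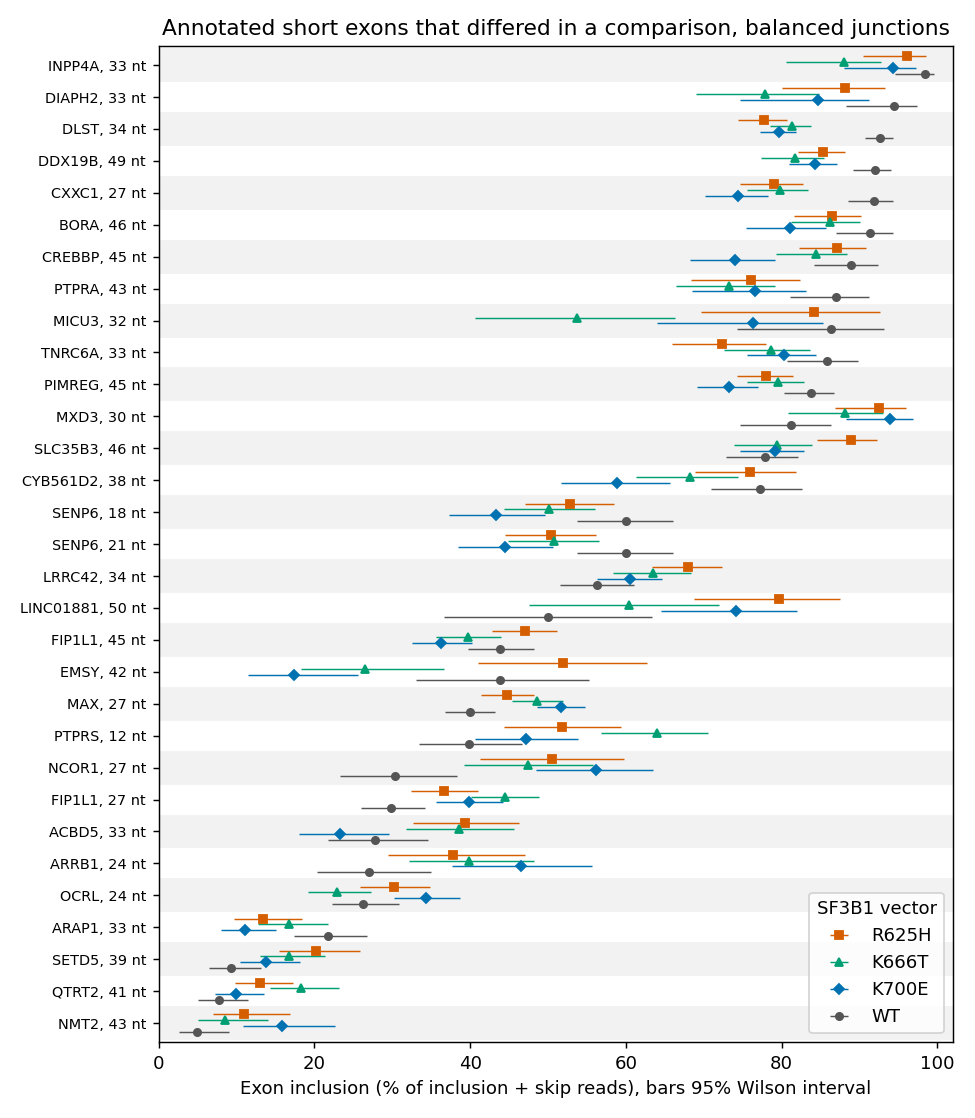
Inclusion (x axis, percent of inclusion plus skip reads) of 31 annotated short exons that were called in at least 1 comparison and had evenly read inclusion junctions, ordered by WT inclusion. Points are single libraries and bars 95% Wilson intervals, which cover counting error only; CXXC1 and DLST lie below WT in all 3 mutants.

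CXXC1 and DLST fell in all 3 mutants. The 3 comparisons share 1 WT library, so a WT value that stands apart enters all of them, and these calls are not independent of each other. CXXC1, which binds unmethylated CpG DNA in a histone H3 lysine 4 methyltransferase complex, had its 27-nt coding exon at 78.95, 79.75 and 74.36% inclusion in R625H, K666T and K700E, against 91.85% in WT. The 95% intervals spanned 74.7 to 82.7%, 75.5 to 83.4% and 70.1 to 78.3% for the mutants and 88.5 to 94.3% for WT. Differences were -12.91, -12.10 and -17.49 points (adjusted p = 0.000144, 0.000301 and 1.08e-08), and no mutant interval reached that of WT. DLST is a subunit of the 2-oxoglutarate dehydrogenase complex of the citric acid cycle. Its 34-nt coding exon, which shifts the frame when skipped, had 77.70, 81.29 and 79.67% in R625H, K666T and K700E against 92.66% in WT, from 686, 807 and 1102 reads against 817 in WT. Skip reads numbered 153 in R625H and 224 in K700E and 60 in WT (all 3 mutants called, adjusted p = 1.19e-13, 2.8e-09 and 1.3e-13). GAS8, a ciliary dynein regulator, had the 1 annotated short exon that was called higher in all 3 mutants. Its 14-nt exon had 31.17, 29.59 and 25.19% against 7.41% in WT (adjusted p = 0.00566, 0.00327 and 0.00895), but its weaker junction had only 4, 6 and 12 reads in the mutants and 1 in WT.

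The exons with evenly read junctions are given by the role of their host gene, as an order of description and not as a tested grouping. EMSY, a chromatin-bound partner of BRCA2, had its 42-nt coding exon at 51.95% in R625H, 26.44% in K666T and 17.43% in K700E, against 43.84% in WT. It fell in K700E (-26.40 points, adjusted p = 0.00632) on 109 reads against 73 in WT, and was lower in K700E than in R625H (adjusted p = 0.000218). CREBBP, a histone acetyltransferase, fell in K700E: its 45-nt exon had 87.12, 84.36 and 74.06% against 88.89% in WT (adjusted p = 0.00209 for K700E). NCOR1, a scaffold of a histone deacetylase corepressor complex, went the other way. Its 27-nt exon had 50.46, 47.41 and 56.10% against 30.28% in WT, and the rise passed the test in K700E (25.82 points, adjusted p = 0.000392), with adjusted p of 0.0824 in R625H and 0.107 in K666T. MAX, the obligate partner of MYC, had its 27-nt exon at 44.76, 48.62 and 51.72% against 39.93% in WT. It rose in K700E (11.78 points, adjusted p = 2.46e-05), while its K666T difference of 8.68 points stayed under 10. MXD3, a repressor that also pairs with MAX, rose in K700E at 30 nt (92.54, 88.18 and 93.85% against 81.18%). SETD5, a chromatin regulator, rose in R625H at 39 nt (20.18, 16.72 and 13.84% against 9.22%).

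In RNA processing and export, FIP1L1, a subunit of the cleavage and polyadenylation machinery, had 2 called exons. Its 27-nt exon had 36.61, 44.42 and 39.84% against 29.89% in WT and rose in K666T (14.53 points, adjusted p = 0.000391); the K700E difference was 9.94 points. Its 45-nt exon had 46.98% in R625H, 39.69% in K666T and 36.26% in K700E, against 43.88% in WT, and differed between R625H and K700E alone (10.73 points, adjusted p = 0.0212). TNRC6A, a partner of Argonaute proteins in microRNA silencing, fell in R625H at 33 nt (72.33, 78.60 and 80.32% against 85.84%). DDX19B, a helicase of messenger RNA export, fell in K666T at 49 nt (85.34, 81.74 and 84.26% against 91.94%). CCNL2, a cyclin of splicing speckles, fell in K666T and K700E at 14 nt (72.88, 65.18 and 58.84% against 77.22%), with a weaker junction at 0.0965 times the stronger. SENP6, a SUMO protease, has the exon pair of 21 and 18 nt shown above, whose acceptors lie 3 bases apart. The 21-nt form had 50.36, 50.72 and 44.44% against 60% in WT and the 18-nt form 52.78, 50.18 and 43.32% against 60% in WT; both fell in K700E (adjusted p = 0.0169 and 0.00919), and both share skip and donor reads. Acceptors within 50 nt upstream of the 18-nt form held 43.52, 51.83 and 53.09% of acceptor reads against 50.25% in WT. In R625H 93 of these 94 upstream reads lay at the acceptor of the 21-nt form, and in the other libraries all did.

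PTPRS, a receptor tyrosine phosphatase of axons and synapses, had its 12-nt microexon at 51.81, 63.93 and 47.17% in R625H, K666T and K700E, against 39.81% in WT. The interval of K666T ran over 56.8 to 70.5% and that of WT over 33.4 to 46.6%; the R625H interval (44.3 to 59.3%) overlapped both. It rose in K666T by 24.13 points (adjusted p = 0.000315), on 117 inclusion and 66 skip reads against 82 and 124 in WT. ARRB1, the receptor adaptor beta-arrestin 1, rose in K700E at 24 nt (37.84, 39.86 and 46.49% against 27.01%, adjusted p = 0.0343). ARAP1 fell in K700E at 33 nt (13.42, 16.73 and 11.04% against 21.72%). INPP4A, a phosphoinositide phosphatase, and DIAPH2, an actin-nucleating formin, fell in K666T, both at 33 nt: INPP4A had 96.12, 87.96 and 94.23% against 98.46% and DIAPH2 88.17, 77.88 and 84.72% against 94.39%. CYB561D2, a transmembrane electron carrier, fell in K700E at 38 nt, with 75.90, 68.23 and 58.82% against 77.27% (adjusted p = 0.00462); the level of its gene was 0.48 lower in K700E than in WT on the log2 scale of CPM. PTPRA, another receptor phosphatase, fell in K666T for an untranslated exon of 43 nt (76.06, 73.22 and 76.56% against 86.98%).

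Genes of other roles held the remaining exons with evenly read junctions. NMT2, which attaches myristate to proteins, rose in K700E at 43 nt (10.90, 8.50 and 15.86% against 4.86%). QTRT2, a subunit of the enzyme that puts queuine into transfer RNA, rose in K666T at 41 nt (13.06, 18.28 and 9.97% against 7.72%). SLC35B3, a sulfate donor transporter of the Golgi, rose in R625H at 46 nt (88.93, 79.37 and 79.08% against 77.81%), as did an untranslated exon of LRRC42 (34 nt, 67.97, 63.51 and 60.53% against 56.31%) and an exon of the non-coding LINC01881 (50 nt, 79.71, 60.34 and 74.19% against 50%). MICU3, of the mitochondrial calcium uniporter, fell in K666T at 32 nt (84.21, 53.70 and 76.27% against 86.27%) on 38, 54 and 59 reads against 51 in WT. BORA and PIMREG, both of mitosis, fell in K700E: BORA at 46 nt had 86.48, 86.21 and 81.08% against 91.34% and an untranslated exon of PIMREG at 45 nt 78.04, 79.49 and 73.28% against 83.75%.

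The other called annotated exons, like those of GAS8 and CCNL2, had a weaker junction below 0.5 times the stronger. UAP1, of amino sugar synthesis, fell in K666T and K700E (48 nt, 66.32, 63.99 and 61.25% against 74.06%), and an acceptor upstream of it took 81.87, 77.27 and 80.59% of reads against 79.06% in WT. MORF4L2, of a histone acetyltransferase complex, rose in K700E for an untranslated exon of 49 nt on 4387 reads against 4367 in WT (36.72, 35.76 and 47.21% against 34.58%, adjusted p = 4.84e-30). MTO1, which modifies mitochondrial transfer RNA, rose in R625H at 50 nt (32.24, 18.42 and 27.46% against 14.53%). HDAC10, a polyamine deacetylase, fell furthest among the annotated short exons called in K700E (29 nt, 79.41, 64.71 and 62.50% against 92.31%) on 34, 34 and 56 reads against 39. WARS1, TRIM26 and KCTD9 had at most 4 reads at their own acceptor in each library, so the inclusion reads behind their falls in K700E came almost wholly from the donor side. The WARS1 gene, an interferon-induced transfer RNA synthetase, was 0.47 higher in K700E than in WT on the log2 scale, TRIM26 0.57 and ATF3, a stress transcription factor, 0.84, and the interferon-induced IFIT1 was 2.78, 2.25 and 5.32 higher than in WT in R625H, K666T and K700E; their part in these exons was not tested. ISG15, another interferon-induced gene, was 2.54, 2.14 and 4.40 higher on the same scale. Its 46-nt member, with only the donor annotated, had 95.83, 93.92 and 98.89% inclusion against 76.65% in WT and rose in all 3 mutants (19.18, 17.27 and 22.24 points, adjusted p = 4.19e-13, 6.13e-09 and 2.51e-36). Its donor-side junction held 1973, 1575 and 9438 reads against 302 in WT. The acceptor-side junction held 2, 0 and 0 against 0, so use of the 46-nt span is not shown. ATF3 (28 nt) had 76.94, 84.28 and 98.18% against 81.82% in WT and rose in K700E with 6 skip reads there against 48 in WT. Its acceptor-side junction held 653, 771 and 645 reads against 432 in WT. The donor-side junction held 0, 0 and 1 against 0, so use of the 28-nt span is not shown. CAMK2G, PLD3, NKAPD1 and TMEM214 fell in K700E, PLD3 also in K666T.

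The mutants were also set against each other. R625H against K666T, at equal plasmid amounts, called 17 short exons higher and 4 lower in R625H (0.247%), where the share over all cassette exons was 0.121% (0.0695% higher, 0.0513% lower); with the lower inclusion junction it called 0 higher and 2 lower. Of the 2536 annotated short exons 0 were called, where 0.0119% of annotated cassette exons were (0.0089% higher, 0.00297% lower). R625H against K700E called 42 higher and 20 lower (0.729%), where the share over all was 0.473% (0.342% higher, 0.131% lower); with the lower inclusion junction it called 16 higher and 4 lower. Of the 42 and 20, 8 and 2 were annotated (0.394% of the annotated short exons), where the annotated background was 0.237% (0.181% higher, 0.0564% lower). K666T against K700E called 14 higher and 23 lower (0.435%), where the share over all was 0.336% (0.212% higher, 0.124% lower); with the lower inclusion junction the direction turned, to 13 higher and 3 lower. Of the 14 and 23, 2 and 3 were annotated (0.197% of the annotated short exons), where the annotated background was 0.157% (0.11% higher, 0.0475% lower). The annotated exons higher in R625H than in K700E were those of EMSY, CYB561D2, ACBD5, CCNL2, CREBBP, NKAPD1, WARS1 and FIP1L1 (45 nt), and those lower were in ATF3 and MORF4L2. ACBD5, a tether of peroxisomes, had its 33-nt exon at 39.27% in R625H, 38.50% in K666T and 23.27% in K700E, against 27.72% in WT, and passed only for R625H against K700E (16 points, adjusted p = 0.0472). OCRL, an inositol phosphatase of endosomes and Golgi, had its 24-nt exon at 30.20, 22.95 and 34.32% against 26.26% in WT and was lower in K666T than in K700E (-11.37 points, adjusted p = 0.025). Comparisons with K700E also differ in plasmid amount.

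Genes with known neural microexons were looked at as a list of 94, of which 65 had a member. There were 120 members in them, and 82 annotated short exons in 55 genes. The 41 annotated exons of 27 nt or less were mostly skipped: median inclusion was 18.9, 17.1 and 12.9% in R625H, K666T and K700E and 8.93% in WT. All 463 annotated exons of that length, which include these, had 52.8, 52.8 and 51.7% in the mutants and 55.6% in WT. Of the 41, 40 had a length divisible by 3. Inclusion was higher than in WT in 27, 27 and 26 of the 41 in R625H, K666T and K700E, with median differences of 0.84, 1.44 and 0.49 points. Over all 463 exons of that length it was higher in 247, 236 and 209, with medians of 0.05, 0.02 and -0.08. Over the 82 annotated exons of the list it was higher in 46, 41 and 48, with medians of 0.52, 0.06 and 0.32. Among the 82 annotated exons, 1 rose (PTPRS, 12 nt) and 1 fell (DIAPH2, 33 nt) in K666T, and none was called in R625H or K700E. Over all annotated cassette exons 0.214, 0.406 and 0.854% were called in R625H, K666T and K700E, counting both directions. The 1 rise and 1 fall among 82 in K666T lie above its share of 0.406%. Counts this small were not tested against the background.

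Within the list, exons of 1 gene could sit at opposite ends of the scale. SPTAN1, the alpha chain of spectrin, had its 18-nt exon at 91.95, 92.50 and 92.68% in R625H, K666T and K700E against 92.38% in WT, and its 15-nt exon at 19.38, 17.13 and 14.09% against 18.12%. DNM2, the endocytic GTPase dynamin 2, had a 12-nt exon near the middle in each library, at 49.36, 57.26 and 53.68% against 55.81% in WT on 701 to 816 reads. Others were almost always skipped. PTK2, focal adhesion kinase, had 1.27, 3.89 and 4.07% against 2.49% for its 18-nt exon, and AGRN, agrin, had 2.44, 3.45 and 2.26% against 1.47% for its 12-nt exon. ABI1, an adaptor of actin assembly, had its 15-nt exon at 23.48, 23.63 and 16.39% against 15.16%, which missed the threshold (adjusted p = 0.0975 and 0.0653 in R625H and K666T). PTBP2, a splicing repressor of the nervous system whose 34-nt exon decides whether the message is stable, had 38.35, 38.46 and 36.11% against 50% in WT, with adjusted p of 0.418, 0.285 and 0.145.

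Exons of similar sequence in related genes could lie far apart in level. MACF1 had its 18-nt exon at 27.44, 27.97 and 32.72% against 31.51% in WT, and DST, the other large spectraplakin, its own at 84.48, 89.62 and 87.39% against 91.67%. MINK1, a kinase of the Ste20 family, had 4.10, 1.43 and 3.02% against 2.37% in WT, and its relative TNIK had 58.50, 51.97 and 48.20% against 49.34%. CPEB2 and CPEB4, which bind the cytoplasmic polyadenylation element of messages, were both mostly skipped. CPEB2 had 27.66, 20 and 11.76% against 8.47% in WT, with intervals of 16.9 to 41.8% for R625H and 3.67 to 18.4% for WT, and CPEB4 had 8.77, 8.96 and 6.54% against 1.33%. Neither CPEB exon passed the test against WT (lowest adjusted p = 0.333 for CPEB2 and 0.467 for CPEB4), on 47 to 107 reads.

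**Figure D5:**
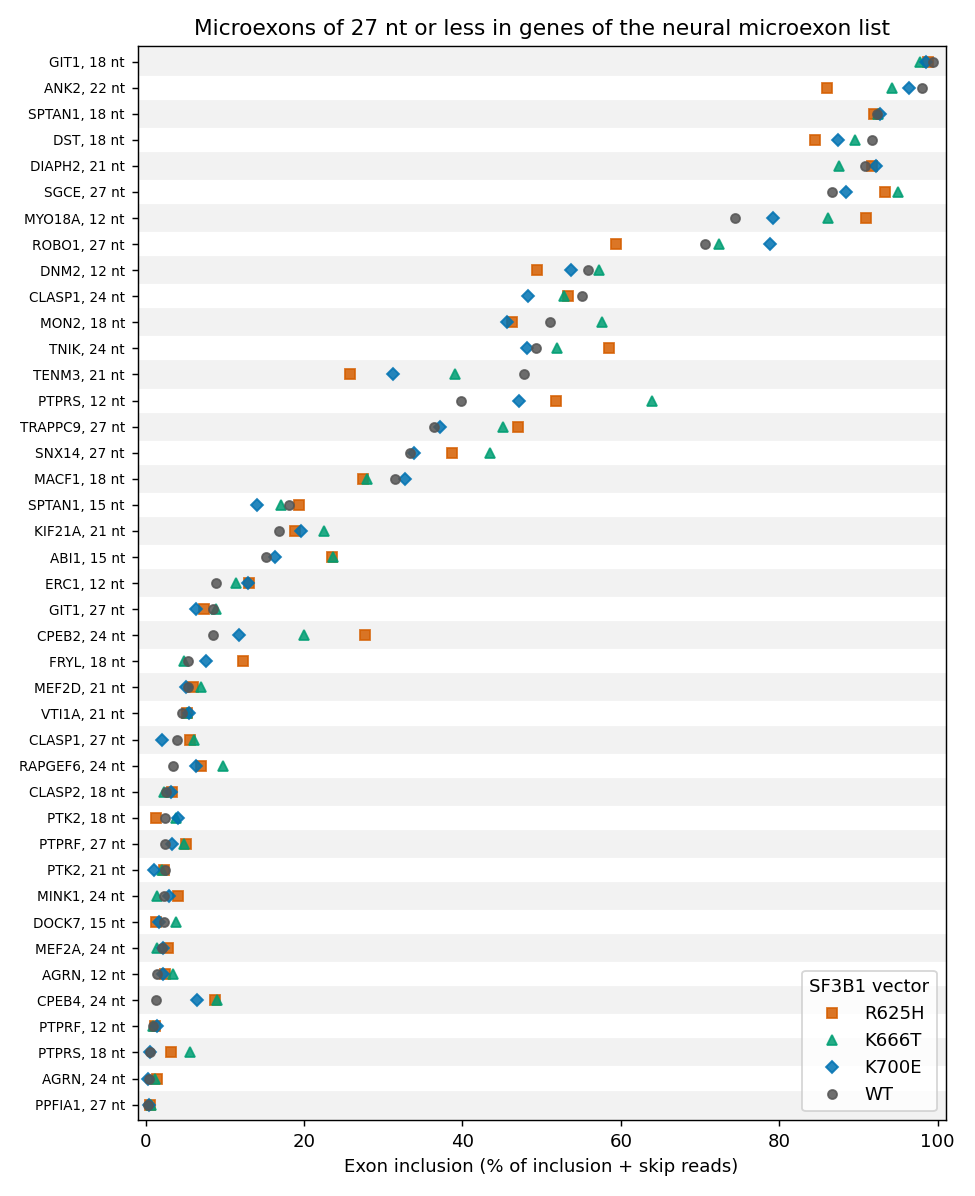
Inclusion (x axis, percent of inclusion plus skip reads) of 41 annotated exons of 27 nt or less in genes of the neural microexon list, ordered by WT inclusion, with a marker per library. Most lie under 10% in WT (21 of 41); PTPRS at 12 nt is the 1 exon among them that was called, at 63.93% in K666T against 39.81% in WT.

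The cells carried little of the neural microexon factor. SRRM4, the neural activator, had 4, 2 and 4 reads in R625H, K666T and K700E and 1 in WT, while its relative SRRM3 had 8.91, 8.51 and 8.74 CPM (gene counts scaled to the library total) against 8.82 in WT. PTBP1 had 506.0, 514.0 and 542.0 CPM against 533.0, and RBFOX2, another microexon regulator, 116.0, 120.0 and 120.0 against 130. PTBP2 was higher in the mutants at 59.6, 66.6 and 65.7 CPM against 48.7 (log2 ratios of 0.29, 0.45 and 0.43), values that have no test. SUGP1, a partner of SF3B1 at the branch point, had 63.2, 66.5 and 72.4 CPM against 38.9 (0.70, 0.77 and 0.90). SF3B1 reads can come from the resident gene or from the vector and ran at 517.0, 521.0 and 512.0 CPM against 506.0, so they check no label. Of the 25 regulators listed, the log2 ratios to WT lay between -0.23 and 0.90. Genes taken as HEK293 markers were read, LIN28B at 152.0, 153.0 and 165.0 CPM against 152.0, and so were some neuronal genes, such as SYT1 at 13.9, 16.4 and 15.1 against 14.1, while SNAP25 and CAMK2A stayed under 1 CPM in each library. Of 2018 genes that host an annotated short exon and had a level, 0, 2 and 2 were at least 2-fold from WT in R625H, K666T and K700E.

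Acceptors just upstream of the annotated short exons were also read, as SF3B1 mutants are known for using such sites. Another acceptor within 50 nt upstream, joined to the same donor, had reads for 10.8, 10.9 and 11.2% of the 2536 annotated short exons in R625H, K666T and K700E and for 10.6% in WT. For 22013 annotated exons of 51 to 150 nt the shares were 12.8, 12.5 and 12.8% against 10.3%, and for 9168 longer ones 12.5, 11.9 and 11.6% against 9.23%. By this count of exons with any read, the short exons had nearly the same share in mutants and WT, where the longer exons had more in each mutant. Counted in reads, upstream acceptors held 5.86, 5.84 and 5.73% of acceptor reads against 5.92% in WT for short exons. This share rests largely on 2 genes, RPS15A and EIF4A1, with 32405 and 14869 of the 85489 upstream reads in R625H. Their upstream acceptor took 99.76 and 99.41% of reads in R625H, and 99.81 and 99.33% in WT. The pooled share thus says little about the other short exons. For exons of 51 to 150 nt they held 4.69, 4.61 and 4.75% against 4.57%, and for longer ones 2.72, 2.73 and 2.68% against 2.63%. The WT library also listed fewer junctions, and these differences were not tested. Of 1645 short exons with at least 20 acceptor reads in each library, 1 had an upstream share at least 10 points above WT in every mutant, and 3 had one at least 10 points below. The 1 above, singled out after its values were seen, was SEPTIN6, a cytoskeletal GTP-binding protein, with a 45-nt exon. Its upstream acceptor took 18.59, 14.17 and 20.54% of reads, from 29, 18 and 23 reads, against 1.68% from 3 reads in WT.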

How the data were processed

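The authors deposited counts of uniquely mapped and multi-mapped reads per splice junction, with the longest overhang of a spliced alignment in nt, and counts per gene for each library. Per the labels' protocols, stranded TruSeq mRNA libraries were read on a NovaSeq as 100-bp pairs. STAR 2.5.3a, HTSeq and hg19/GRCh37 are named in the submitters' processing notes; aligner settings and annotation: not given in the sources used here.

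Unique junction counts were used as deposited, and inclusion reads were the mean of 2 junctions, rounded upwards at a tie. Gene counts, as deposited, were those of the stranded column that held most reads; 51996 of 57820 gene IDs had an entry in the name table. Rows that name no gene, left out, held 12.27, 12.24 and 13.28% of pairs in R625H, K666T and K700E and 13.06% in WT, besides unmapped pairs. Exons were named by matching the intron lengths of GENCODE release 29 to the hg19 junctions, with at least 2 introns falling together, which placed 16127 of the 18228 protein-coding genes tried. The builds differ, so only hg19 positions are printed, and a gene placed wrongly or not at all is possible.

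Fisher's exact test was run in Python 3.11.15 (numba 0.67.0, scipy 1.17.1) and tested on simulated data. Gene ratios are log2 of CPM with a prior count of 10; edgeR 4.0.16 gave TMM factors as an alternative. A read pair can cross both junctions of a short exon, and reads are not independent molecules, so Wilson intervals cover counting error only. Named are, per mutant against WT, the up to 12 called exons with the largest difference in each direction (5 between mutants), called exons of 27 nt or less, members in the neural list and, added after their values were seen, all called annotated exons; the text gives examples of each. The members, lists and tests were chosen with earlier results of these data known. Alternatives changed the reads, junctions, coverage, overhang or difference required.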

Additional observations from a re-analysis of the deposited data

How the results depend on the processing

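Of 126 values recomputed under another choice, 62 moved past their limit (1.5 times for a count, the counting error for a mean) and 64 did not; the cause was not tested beyond what each choice removes or adds. No paired analysis was possible because each group has 1 library. Taking the lower of the 2 inclusion junctions left 2869 short exons (1972 annotated). R625H against WT then had 14 higher and 17 lower, 6 annotated exons higher and 6 lower, and a mean difference of 0.25 points, so its sign changed; K666T had 21 lower, 8 annotated exons higher and a mean of -0.04, and K700E 31 lower and a mean of -0.4. Between mutants, R625H against K666T had 0 higher and 2 lower, R625H against K700E 16 higher and 4 lower, and K666T against K700E 13 higher and 3 lower, so its direction turned. With multi-mapped reads added (9611 exons), R625H had 55 higher and 54 lower, 11 and 7 annotated exons higher and lower and a mean of -0.08, K666T 58 higher and a mean of -0.22, and K700E 63 higher, 13 annotated exons higher and a mean of -0.56. With all skip junctions summed (9340), R625H had 7 annotated exons higher and 7 lower and a mean of -0.53, K666T 107 lower and a mean of -0.75, and K700E 186 lower, 37 annotated exons lower and a mean of -1.17. At least 50 reads (7501) gave 2 lower for R625H against K666T and 15 lower for K666T against K700E. Without the need for reads above 0 (18038), R625H had 47 higher and 62 lower and a mean of -0.16, K666T 42 higher and a mean of -0.29, and K700E a mean of -0.48; R625H against K666T had 43 higher and 27 lower, R625H against K700E 35 lower, and K666T against K700E 41 higher and 47 lower. An overhang of at least 20 nt (5606) gave R625H 12 higher and 26 lower, and K666T 10 higher and 2 annotated exons higher. An exon shorter than 20 nt cannot itself hold such an overhang. This choice can therefore remove the shortest members for their length alone. A difference of at least 20 points left R625H 13 higher and 19 lower (2 and 0 annotated), K666T 9 higher and 24 lower (2 and 1 annotated), and K700E 20 higher and 37 lower (1 and 3 annotated). TMM scaling moved the median log2 ratio of host genes to 0.001, -0.016 and -0.018 in R625H, K666T and K700E. At 20 reads an interval spans much of the scale, so an exon that was not called is not shown to be alike between libraries.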

Other observations

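Reads at an acceptor within 50 nt upstream of an annotated short exon were also lower in each mutant library than in WT for 3 exons, which were picked out after their values were seen and carry no test. CCT5, a subunit of the chaperonin that folds actin and tubulin, had a 43-nt exon whose upstream acceptor took 0 reads in R625H, K666T and K700E and 55 reads in WT, 36.42% of its acceptor reads there. PSMC1, an ATPase of the proteasome, had at 47 nt 19, 0 and 0 upstream reads against 68 in WT, or 42.22, 0 and 0% against 83.95%. TMEM38B, an ion channel of the endoplasmic reticulum, had at 36 nt 51.16, 62.96 and 60.53% against 80%. RACK1, a ribosome-bound scaffold, was read unevenly among the mutants as well, with 0, 17.89 and 73.81% for its 40-nt exon against 77.12% in WT. How zeros in one library beside many reads in another arose was not tested.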
